A study of Mus musculus with 24 samples.

Results

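The transcripts described here encode the BCL2 family proteins Bcl2, Bcl2l1, Bcl2l11, Mcl1, Bax, Bak1, Bad and Bid, measured in mouse embryonic fibroblasts under endoplasmic reticulum (ER) stress. The members were every probe set that the array's gene table assigned to 1 of these 8 genes alone. A probe set is the group of oligonucleotides on the array that reports 1 transcript. The rule found 13 probe sets of 12422 (controls excluded), and they belonged to 7 of the 8 genes. Bax had no probe set under its own name in that table and has no values here.

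Primary embryonic fibroblasts from wild-type and CHOP-/- mice were hybridised to 24 oligonucleotide arrays as total RNA. CHOP is the stress-induced transcription factor that the gene Ddit3 encodes. The 6 groups, of 4 arrays each lettered A to D, were wild type untreated, wild type with tunicamycin at 2 µg/ml for 4 h, wild type with the same dose for 8 h, and the same 3 conditions in CHOP-/- cells. Tunicamycin blocks N-linked glycosylation in the ER, so that misfolded glycoproteins build up there. The labels give no number of embryos, no strain background, no time for the untreated cells and no group that received solvent alone, so a change with tunicamycin cannot be told apart from a change with time or handling. They add a passage number, 3, on 3 of the untreated wild-type arrays only. Separate cultures or embryos for the 4 arrays of a group are not stated either, and the p-values therefore reflect the spread among these arrays, which may be technical.

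BCL2 family proteins decide whether the outer mitochondrial membrane is made permeable during apoptosis. BCL2, BCL-XL (from Bcl2l1) and MCL1 hold the pore-forming effectors BAX and BAK1 in check. The BH3-only proteins BIM (from Bcl2l11), BAD and BID oppose that restraint. In ER stress, CHOP has been reported to lower Bcl2 and to raise Bcl2l11 transcripts, which is why the CHOP-/- cells bear on these genes. Much of the control of the family acts on the proteins (phosphorylation of BAD, cleavage of BID, turnover of MCL1), which an RNA array does not measure.

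The trimmed mean signal was 250.1 to 250.2 on every array, the result of scaling before deposit, and the medians were 48.2 to 72.6. The genotype labels matched Ddit3: its signal was 299.7 ± 97.4 (SD, n = 4) in untreated wild-type cells and 4383 ± 524 at 8 h, against 14.7 ± 12.0 and 20.5 ± 14.4 in CHOP-/- cells, and no CHOP-/- array reached the level of any wild-type array. Fibroblast markers were high, with a mean signal over all arrays of 7912 for Col1a1, 6157 for Col1a2 and 3530 for Thy1, although the probe set for Vim read only 8.4 to 41.1. Of the neural and muscle lists, Tubb3 (mean signal 1620.0), Ncam1 (1072.5), Nes (982.8) and Actc1 (1530.9) were also bright. The other genes of these lists had means of 1.6 to 67.1. Leukocyte markers set some libraries apart. The summed signal of the 8 of 9 listed leukocyte genes that were measured was 1294.0 to 2421.1 on the 6 wild-type arrays A and B, 259.7 to 461.5 on the 6 wild-type arrays C and D, and 192.8 to 659.2 on the 12 CHOP-/- arrays. On the wild-type arrays A and B the myeloid genes Lyz2 (633.5 to 1563.4), Csf1r (258.1 to 442.0) and Itgam (40.3 to 90.3), as well as Laptm5 (184.2 to 318.2), lay above all other arrays, which reached 278.3, 149.1, 20.3 and 126.9. The same arrays overlapped the others in Cd68 (44.5 to 128.1 against 21.5 to 71.2) and in the pan-leukocyte gene Ptprc (12.0 to 32.9 against 0.7 to 16.4). Cd3e, of T cells, read 5.5 to 11.8 and Cd79a, of B cells, 7.6 to 48.2 over all arrays, with neither highest on the arrays A and B. Results below that change without these arrays are given both ways. In a bulk sample, fewer cells of a type and less RNA per cell cannot be told apart.

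Of the 13 probe sets, 10 passed the filter on low values, which required a mean above a signal of 27.8, and these covered all 7 genes. The 3 that did not were Bcl2 98868_at (mean signal 9.9), Bcl2l1 99026_at (2.8) and Bcl2l11 99419_g_at (26.5). Each of the 10 was tested in 11 comparisons with limma on log2(signal + 5.7), together with all 7453 probe sets that passed, and was called where the Benjamini-Hochberg adjusted p was under 0.05. A fold change on this scale understates the change of weak signals. Of these 110 tests, 2 were called: Bid was higher at 8 h than in untreated wild-type cells, and Bcl2l11 fell between 4 h and 8 h in wild-type cells. Over all tested probe sets 15.1% were called in the first of these comparisons and 3.61% in the second. No member was called in CHOP-/- cells or between the genotypes, where 0.845% to 12.5% of all tested probe sets were called. At an unadjusted p under 0.05 the members numbered 1 of 10 at 4 h, 1 at 8 h and 3 between these times in wild-type cells. The shares of all tested probe sets there were 10.1%, 26.3% and 14.4%. In CHOP-/- cells the members numbered 2 of 10 at 4 h, 1 at 8 h and 2 between these times, beside 11.2%, 25.5% and 18.7% of all. Between the genotypes they numbered 1 untreated, 2 at 4 h and 1 at 8 h, beside 8.55%, 14.7% and 15.9% of all.

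The promoters of these 2 genes are shown because only their transcripts passed the test. Each window runs from 250 bases before to 50 bases after a RefSeq transcription start (GRCm38.p6), written along the gene's own strand. The Bid window lies at chr6:120916775-120917074 on the minus strand and the first of the 2 Bcl2l11 windows at chr2:128125788-128126087 on the plus strand. The capitals in the Bcl2l11 window mark the FOXO element GTAAACA, a sequence that forkhead factors such as FOXO3 can bind.
Bid: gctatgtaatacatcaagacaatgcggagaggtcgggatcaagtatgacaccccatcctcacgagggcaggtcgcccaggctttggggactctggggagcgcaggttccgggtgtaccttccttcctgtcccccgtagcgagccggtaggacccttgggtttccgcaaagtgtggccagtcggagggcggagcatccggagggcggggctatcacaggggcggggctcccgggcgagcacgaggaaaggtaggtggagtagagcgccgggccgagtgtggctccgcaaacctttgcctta
Bcl2l11: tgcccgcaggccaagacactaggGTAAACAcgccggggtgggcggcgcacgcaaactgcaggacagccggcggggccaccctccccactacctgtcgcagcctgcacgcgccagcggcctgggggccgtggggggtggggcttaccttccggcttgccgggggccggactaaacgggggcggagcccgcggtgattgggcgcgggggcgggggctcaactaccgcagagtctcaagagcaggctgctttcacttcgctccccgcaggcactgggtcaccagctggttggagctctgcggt

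GC made up 63.3% of the Bid window and 71.0% of the first Bcl2l11 window, against a median of 52.7% over all 32851 windows of 27025 genes. The second Bcl2l11 window, not shown, had 74.0%. Windows of members that were not called ran from 49.3% (Bcl2l1) to 76.0% (Bcl2). Motifs were searched on both strands in the 12 windows of the 8 genes. The ATF4-C/EBP element TGATGCAA is in 0.895% of all windows, the composite CHOP-C/EBP element in 0.204%, the ER stress response element in 0.119% and the unfolded protein response core TGACGTG in 2.01%, and none of these strings is in any of the 12. GTAAACA is in 3.65% of all windows, and among the 12 it is in the first Bcl2l11 window only (offset -227 from the start). A match describes the letters of the window and says nothing about binding.

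Bid encodes the BH3-only protein that caspase-8 cleaves, linking death receptors to mitochondria. In untreated wild-type cells its signal (arrays A, B, C and D in that order) was 149.2, 158.8, 243.9 and 166.5. With tunicamycin it was 160.9, 184.5, 313.9 and 232.0 at 4 h and 270.7, 300.0, 407.9 and 324.2 at 8 h. All 4 arrays at 8 h lay above all 4 untreated arrays, while the 4 h arrays overlapped with both, and array C was the highest at each time.

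The Bid signal in CHOP-/- cells was 190.1, 138.6, 176.1 and 156.5 untreated, 168.9, 188.9, 121.3 and 137.0 at 4 h, and 175.4, 195.7, 221.3 and 203.4 at 8 h. These 3 groups overlapped throughout. The 8 h arrays of the CHOP-/- cells were all below the 8 h arrays of the wild type. Ranked by mean signal, the order was wild type 8 h (325.7 ± 59.0), wild type 4 h (222.8 ± 67.5), CHOP-/- 8 h (199 ± 19.0), wild type untreated (179.6 ± 43.4), CHOP-/- untreated (165.3 ± 22.5) and CHOP-/- 4 h (154.0 ± 30.5), each mean ± SD over 4 arrays. Neighbours in this order overlapped in every case.

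**Figure D1:**
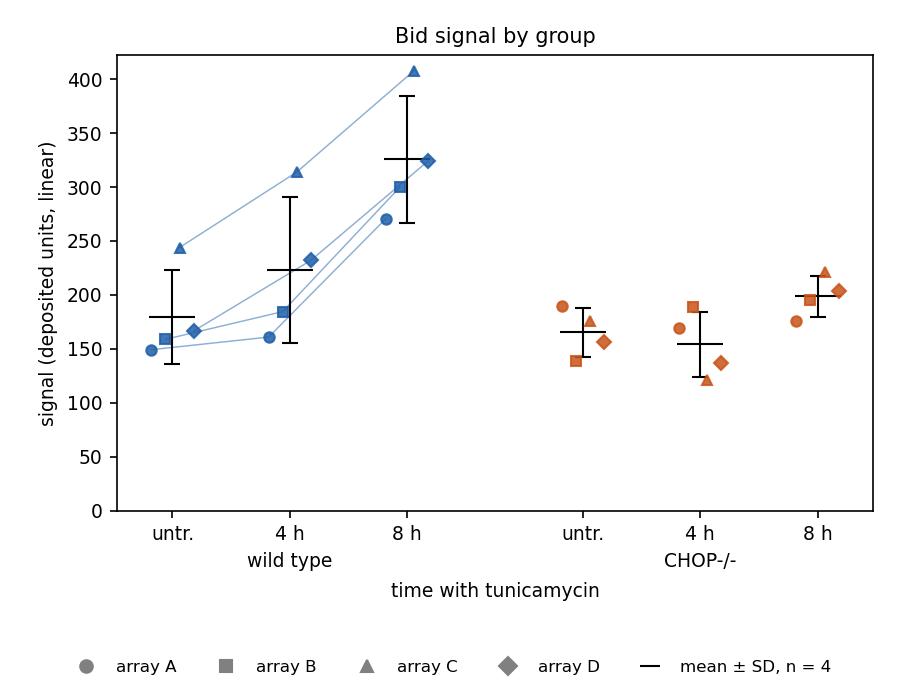
Bid signal (deposited linear units) on each array, by genotype and time with tunicamycin. Symbols are arrays A to D, horizontal bars are means and whiskers are SD (n = 4), and lines join wild-type arrays of the same letter. The wild-type 8 h arrays (270.7 to 407.9) lie above all untreated wild-type arrays and all CHOP-/- arrays at 8 h (175.4 to 221.3).

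Bid rose by 0.82 on the log2 scale (SE 0.20, 95% interval 0.40 to 1.24, 1.76-fold, limma adjusted p = 0.00686) between untreated and 8 h wild-type cells. It was the 1 member probe set of 10 called in this comparison, in which 15.1% of all tested probe sets were called and 8.79% were called higher. By letter the difference was 0.88, 0.78, 0.68 and 0.94 (A to D), positive on all 4. The call held in 22 of 23 alternative analyses, with adjusted p from 0.000526 to 0.0617. The exception left out the 6 wild-type arrays with high leukocyte markers: the difference was then 0.81 with an adjusted p of 0.0617, from 2 arrays per wild-type group. The letter differences of A and B, given above, lay between those of C and D.

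At 4 h the wild-type difference in Bid was 0.22 (interval -0.20 to 0.64, adjusted p = 0.859). Between 4 h and 8 h it was 0.60 (interval 0.18 to 1.02, adjusted p = 0.119). That step was called in 2 of 23 alternatives, with the letter as a block over the wild-type arrays (adjusted p = 0.0109) and without array C at 4 h (0.81, adjusted p = 0.0281). With the block over all 24 arrays the adjusted p was 0.0663. Without the wild-type arrays A and B the step was 0.39 (adjusted p = 0.749), from 2 arrays per wild-type group. By letter the wild-type step was 0.919, 0.69, 0.298 and 0.484 (A to D). The wild-type 4 h difference by letter was -0.039, 0.088, 0.385 and 0.45. The CHOP-/- difference was -0.10 at 4 h (interval -0.52 to 0.32, adjusted p = 0.922) and 0.27 at 8 h (interval -0.15 to 0.68, adjusted p = 0.458). An increase of up to 0.68 in CHOP-/- cells lies within that interval.

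Whether CHOP-/- and wild-type cells differed in Bid was tested directly. At 8 h the difference, CHOP-/- minus wild type, was -0.67 (SE 0.20, interval -1.09 to -0.26, 0.627-fold), with an unadjusted p of 0.00284 and an adjusted p of 0.0612, which missed the threshold. Arrays of the same letter deviated together in these 2 groups, and with the letter as a block the adjusted p was 0.0313 over all arrays and 0.00856 over the 2 groups alone. The pairing was read from these same data. Blocks over part of the arrays, here and in the other results, were chosen after seeing the data. The call was made in 6 of 23 alternatives, and in none of the 8 that left out 1 array (adjusted p 0.0732 to 0.182). Without the wild-type arrays A and B the difference was -0.85 (adjusted p = 0.0428). The difference was -0.44 at 4 h (interval -0.86 to -0.02, adjusted p = 0.31) and -0.12 in untreated cells (adjusted p = 0.917).

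The change with tunicamycin itself, CHOP-/- minus wild type, was -0.55 for Bid at 8 h (SE 0.29, interval -1.15 to 0.04, unadjusted p = 0.0649, adjusted p = 0.999). At 4 h it was -0.32 (interval -0.91 to 0.27, adjusted p = 0.998). The call in wild-type cells and its absence in CHOP-/- cells are thus not shown to differ. The comparisons between genotypes and the 2 responses share the same arrays and are not separate evidence. Among all tested probe sets limma called 0.0134% for this contrast at 8 h, which is 1 probe set, that of Ddit3 itself, and 0.0% at 4 h, where 291 had an unadjusted p under 0.05 (327 at 8 h).

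Across the 24 arrays the probe sets whose log2 values were most like those of Bid belonged to Rsl1d1 (Pearson r = 0.878), Dnajc2 (0.843) and Xpot (0.841). Rsl1d1 encodes a nucleolar protein, Dnajc2 a ribosome-associated chaperone and Xpot a tRNA exporter. Their mean signals also peaked in wild-type cells at 8 h, at 1845.6 for Rsl1d1, 500.2 for Dnajc2 and 1593.2 for Xpot, against 1467.7, 365.0 and 1129.4 in CHOP-/- cells at that time. These correlations describe arrays that share groups, and were picked as the highest among all tested probe sets.

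Bcl2l11 encodes BIM, the BH3-only protein that binds every anti-apoptotic member named here. Its brightest probe set, 100988_at, gave 298.0, 306.0, 231.3 and 256.2 in untreated wild-type cells (A to D). It gave 405.5, 420.0, 435.2 and 340.2 at 4 h and 297.7, 323.4, 235.1 and 211.9 at 8 h. All 4 arrays at 4 h lay above all untreated and all 8 h arrays, and the untreated and 8 h arrays overlapped.

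The CHOP-/- arrays gave 275.3, 233.1, 321.8 and 302.7 untreated, 304.7, 341.1, 291.0 and 431.5 at 4 h, and 212.1, 219.0, 239.0 and 329.5 at 8 h. The CHOP-/- groups overlapped, with array D high at 4 h and at 8 h. By mean signal the order was wild type 4 h (400.2 ± 41.8), CHOP-/- 4 h (342.1 ± 63.3), CHOP-/- untreated (283.2 ± 38.5), wild type untreated (272.9 ± 35.3), wild type 8 h (267.0 ± 52.2) and CHOP-/- 8 h (249.9 ± 54.3). Neighbours in the order overlapped in every case.

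**Figure D2:**
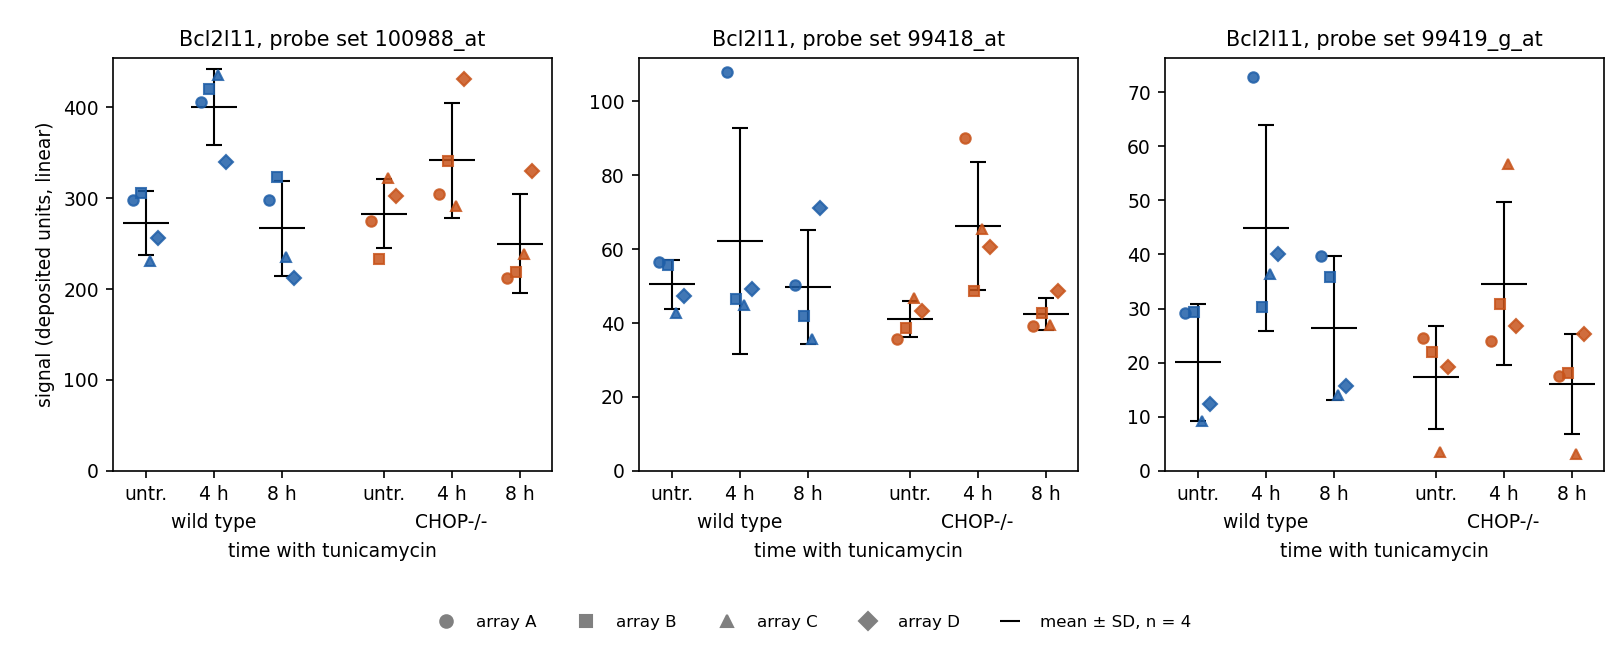
Signals of the 3 Bcl2l11 probe sets (deposited linear units, separate scales) on each array, by genotype and time with tunicamycin; symbols are arrays A to D, bars are means and whiskers are SD (n = 4). The mean of each probe set is highest at 4 h in both genotypes, and in 99418_at the wild-type 4 h mean rests on array A (107.9, against 44.8 to 49.2).

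Between 4 h and 8 h in wild-type cells 100988_at fell by 0.59 on the log2 scale (SE 0.16, interval -0.93 to -0.25, 0.665-fold, limma adjusted p = 0.0443). It was the 1 member probe set of 10 called here, where 3.61% of all tested probe sets were called and 1.72% were called lower. This call was close to the threshold. It held in 8 of 23 alternatives, with differences from -0.79 to -0.48 and adjusted p from 0.0112 to 0.325. With 1 array left out it was kept without array D at 4 h or array B at 8 h and lost without any of the other 6 (adjusted p 0.0355 to 0.178). With the letter as a block over the wild-type arrays the adjusted p was 0.0112, and with it over all 24 arrays it was 0.0532.

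Without the 6 wild-type arrays A and B the wild-type difference between 4 h and 8 h in 100988_at was -0.79 (adjusted p = 0.198), and without the 3 wild-type arrays C it was -0.48 (adjusted p = 0.307). The same step in CHOP-/- cells was -0.46 (interval -0.80 to -0.13, adjusted p = 0.107). The signal was lower at 8 h than at 4 h on all 4 letters in both genotypes, by 0.38 to 0.92 on the log2 scale in wild-type and by 0.36 to 0.61 in CHOP-/- cells. Deviations of the CHOP-/- arrays from their group means at 4 h and 8 h correlated at 0.298 for letter D and at -0.137 to 0.042 for the others. The letters thus do not pair the CHOP-/- arrays as a set, and there the count of letters is a description.

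The difference between untreated and 4 h was 0.52 in wild-type cells (interval 0.18 to 0.86, adjusted p = 0.139) although the arrays did not overlap. It was called in 1 of 23 alternatives, with the letter as a block over the wild-type arrays (adjusted p = 0.0328), and the block over all 24 arrays gave 0.153. Non-overlap was seen in 3 of the 10 member probe sets in this comparison and in 6.47% of all those tested, and 1.95% of all were called. The 4 h difference in CHOP-/- cells was 0.28 (interval -0.06 to 0.62, adjusted p = 0.556). At 8 h the differences from untreated were -0.07 (adjusted p = 0.837) in wild-type and -0.18 (adjusted p = 0.551) in CHOP-/- cells.

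No genotype difference in 100988_at was called. CHOP-/- minus wild type was 0.02 untreated, -0.21 at 4 h (interval -0.55 to 0.13, adjusted p = 0.588) and -0.09 at 8 h (interval -0.42 to 0.25, adjusted p = 0.887). The difference between the 4 h responses was -0.23 (interval -0.71 to 0.25, adjusted p = 0.998). That interval holds both equal responses and a response larger in wild-type cells.

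The other Bcl2l11 probe sets agreed only in part. For 99418_at the arrays gave 56.4, 55.7, 42.7 and 47.3 untreated, 107.9, 46.5, 44.8 and 49.2 at 4 h, and 50.4, 41.9, 35.7 and 71.1 at 8 h in wild-type cells. CHOP-/- cells had 35.7, 38.6, 46.7 and 43.2 untreated, 90.0, 48.7, 65.4 and 60.7 at 4 h, and 39.3, 42.6, 39.6 and 48.7 at 8 h. Here the 4 h arrays stood clear of the untreated ones in CHOP-/- cells and not in wild-type cells, the reverse of 100988_at.

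The 4 h difference in 99418_at was 0.60 in CHOP-/- cells (interval 0.15 to 1.05, adjusted p = 0.225) and 0.17 in wild-type cells (adjusted p = 0.921). The difference between these responses was 0.43 (interval -0.20 to 1.06, adjusted p = 0.998). The weaker 99419_g_at was under the filter signal on 14 of 24 arrays; in a fit with no filter its 4 h differences were 1.01 in wild-type (adjusted p = 0.483) and 0.88 in CHOP-/- cells (adjusted p = 0.54). The mean of each of the 3 probe sets was highest at 4 h in each genotype. In 99418_at the wild-type 4 h mean rested on array A, and the median there was 47.85 against 51.5 untreated. Over the 24 arrays 100988_at correlated with 99418_at at r = 0.267 and with 99419_g_at at r = 0.5.

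The genes most like Bcl2l11 100988_at over the arrays were Trim3 (r = 0.695), Cebpd (0.69) and Cirbp (0.648). Cebpd encodes the transcription factor C/EBP-delta, with mean signals of 777.6, 1216.7 and 594.8 at the 3 times in wild-type cells and 745.7, 1226.6 and 709.8 in CHOP-/- cells. Trim3, a ubiquitin ligase, was near the filter signal, with group means of 24.3 to 44.0.

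Bad encodes a BH3-only protein that 14-3-3 proteins hold in the cytosol when it is phosphorylated. Probe set 161500_i_at gave 59.1, 50.6, 46.4 and 75.4 untreated, 57.8, 48.0, 38.6 and 50.2 at 4 h, and 83.1, 72.9, 46.7 and 77.6 at 8 h in wild-type cells. The CHOP-/- values were 51.0, 39.1, 69.2 and 49.4 untreated, 58.2, 71.1, 63.7 and 71.9 at 4 h, and 63.6, 72.6, 62.9 and 71.9 at 8 h. Every CHOP-/- array at 4 h lay above every wild-type array at 4 h, and the 8 h groups overlapped.

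The difference between 8 h and untreated in 161500_i_at was 0.45 in CHOP-/- cells (SE 0.15, interval 0.14 to 0.76, adjusted p = 0.0503) and 0.29 in wild-type cells (adjusted p = 0.233). It was the smallest adjusted p of any member in the CHOP-/- 8 h comparison, in which 12.5% of all tested probe sets were called. The CHOP-/- difference was called in 5 of 20 alternatives, and its adjusted p was 0.257 with the values as deposited. Between 4 h and 8 h in wild-type cells the difference was 0.52 (adjusted p = 0.0587), or an adjusted p of 0.048 with the letter as a block over the wild-type arrays and 0.0663 with it over all 24. That step was called in 4 of 21 alternatives. Its adjusted p was 0.254 with the values as deposited, and 0.759 without the wild-type arrays A and B (difference 0.38). At 4 h CHOP-/- minus wild type was 0.38 (interval 0.07 to 0.70, adjusted p = 0.215) and the difference between responses 0.58 (unadjusted p = 0.0127, adjusted p = 0.998).

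The second Bad probe set, 99670_at, did not follow the first. Its group means lay between 122.6 and 146.1, its difference at 8 h was -0.16 in wild-type (adjusted p = 0.688) and 0.11 in CHOP-/- cells (adjusted p = 0.809), and it correlated with 161500_i_at at r = -0.073 over the 24 arrays. Which of them reports Bad transcripts better was not tested, so no direction is given for the gene.

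Bak1 encodes the effector BAK, which oligomerises in the mitochondrial membrane. Wild-type cells had 403.5, 336.8, 416.9 and 388.0 untreated, 533.9, 296.7, 382.0 and 342.9 at 4 h, and 300.5, 344.9, 334.5 and 293.7 at 8 h (signal, A to D). CHOP-/- cells had 722.6, 373.5, 637.2 and 463.0 untreated, 532.7, 416.9, 485.7 and 470.5 at 4 h, and 360.8, 596.0, 411.8 and 290.2 at 8 h. The untreated and 8 h CHOP-/- groups were widely spread, and array B, the lowest untreated, was the highest at 8 h.

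The 8 h difference in Bak1 was -0.30 in wild-type (interval -0.72 to 0.12, adjusted p = 0.376) and -0.41 in CHOP-/- cells (interval -0.83 to 0.01, adjusted p = 0.212). Without array B of the CHOP-/- 8 h group the latter was -0.60 with an adjusted p of 0.0486. That was the only call among 22 alternatives (adjusted p 0.0486 to 0.526). Without array D of the same group the difference was -0.25 (adjusted p = 0.526). CHOP-/- minus wild type was 0.44 untreated (interval 0.02 to 0.86, adjusted p = 0.549), 0.33 at 4 h and 0.33 at 8 h (adjusted p = 0.47 and 0.479). In untreated cells 0.845% of all probe sets were called between the genotypes, and at 4 h 1.96% were. No member was called in either.

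Bcl2 encodes the founding anti-apoptotic protein of the family. Its brightest probe set, 98870_at, gave 163.8, 158.5, 109.2 and 143.4 untreated, 156.9, 110.5, 72.4 and 171.1 at 4 h, and 136.5, 79.7, 68.3 and 167.4 at 8 h in wild-type cells. The CHOP-/- values were 157.9, 130.0, 156.2 and 91.0 untreated, 178.3, 116.0, 92.7 and 90.7 at 4 h, and 139.6, 176.6, 88.5 and 108.0 at 8 h. All 6 groups overlapped, and the range of the 4 arrays within each group was wider than the difference between any 2 group means.

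The 8 h difference in Bcl2 98870_at was -0.40 in wild-type cells (SE 0.27, interval -0.96 to 0.16, adjusted p = 0.386) and -0.04 in CHOP-/- cells (interval -0.61 to 0.52). The difference between responses was 0.36 (interval -0.44 to 1.15, adjusted p = 0.999), and at 8 h CHOP-/- minus wild type was 0.20 (interval -0.36 to 0.76, adjusted p = 0.828). These intervals hold both no change and a fall of 0.96 on the log2 scale in wild-type cells. Probe set 98869_g_at gave -0.02 in wild-type cells (interval -0.55 to 0.51) and -0.07 in CHOP-/- cells at 8 h, with a correlation of r = 0.538 to 98870_at. The third, 98868_at, was under the filter signal on all 24 arrays (5.3 to 16.4), and in a fit with no filter its wild-type 8 h difference was -0.26 (adjusted p = 0.564).

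Bcl2l1 encodes BCL-XL, and its probe set 99027_at gave 482.4, 377.2, 409.7 and 556.6 untreated, 637.8, 334.4, 473.8 and 415.4 at 4 h, and 374.7, 452.3, 327.7 and 325.6 at 8 h in wild-type cells. CHOP-/- cells had 661.3, 435.3, 742.0 and 440.8 untreated, 658.7, 622.5, 545.2 and 531.7 at 4 h, and 412.8, 588.8, 406.7 and 494.7 at 8 h. The groups overlapped in every comparison.

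The 8 h difference in Bcl2l1 99027_at was -0.32 in wild-type (interval -0.73 to 0.08, adjusted p = 0.313) and -0.23 in CHOP-/- cells (interval -0.64 to 0.17, adjusted p = 0.511). CHOP-/- minus wild type was 0.38 at 4 h (adjusted p = 0.369) and 0.36 at 8 h (adjusted p = 0.39). The other probe set, 99026_at, read 1.2 to 12.0 over all arrays and was under the filter signal on each of them.

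Mcl1 encodes an anti-apoptotic protein that turns over rapidly. Wild-type cells had signals of 505.2, 450.4, 503.6 and 369.1 without tunicamycin, 560.5, 517.1, 612.3 and 564.8 after 4 h, and 541.8, 426.5, 685.2 and 474.2 after 8 h. The CHOP-/- values were 535.2, 559.7, 626.1 and 433.8 untreated, 451.9, 580.7, 716.7 and 572.8 at 4 h, and 668.7, 605.5, 679.6 and 474.5 at 8 h. The wild-type arrays at 4 h lay just above the untreated ones, and the other groups overlapped.

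The 4 h difference in Mcl1 was 0.28 in wild-type (interval -0.06 to 0.61, adjusted p = 0.671) and 0.11 in CHOP-/- cells. At 8 h it was 0.17 (adjusted p = 0.56) and 0.18 (adjusted p = 0.556). The group means over the 6 groups ran from 457 ± 63.9 in untreated wild-type cells to 607 ± 94.2 in CHOP-/- cells at 8 h.

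**Figure D3:**
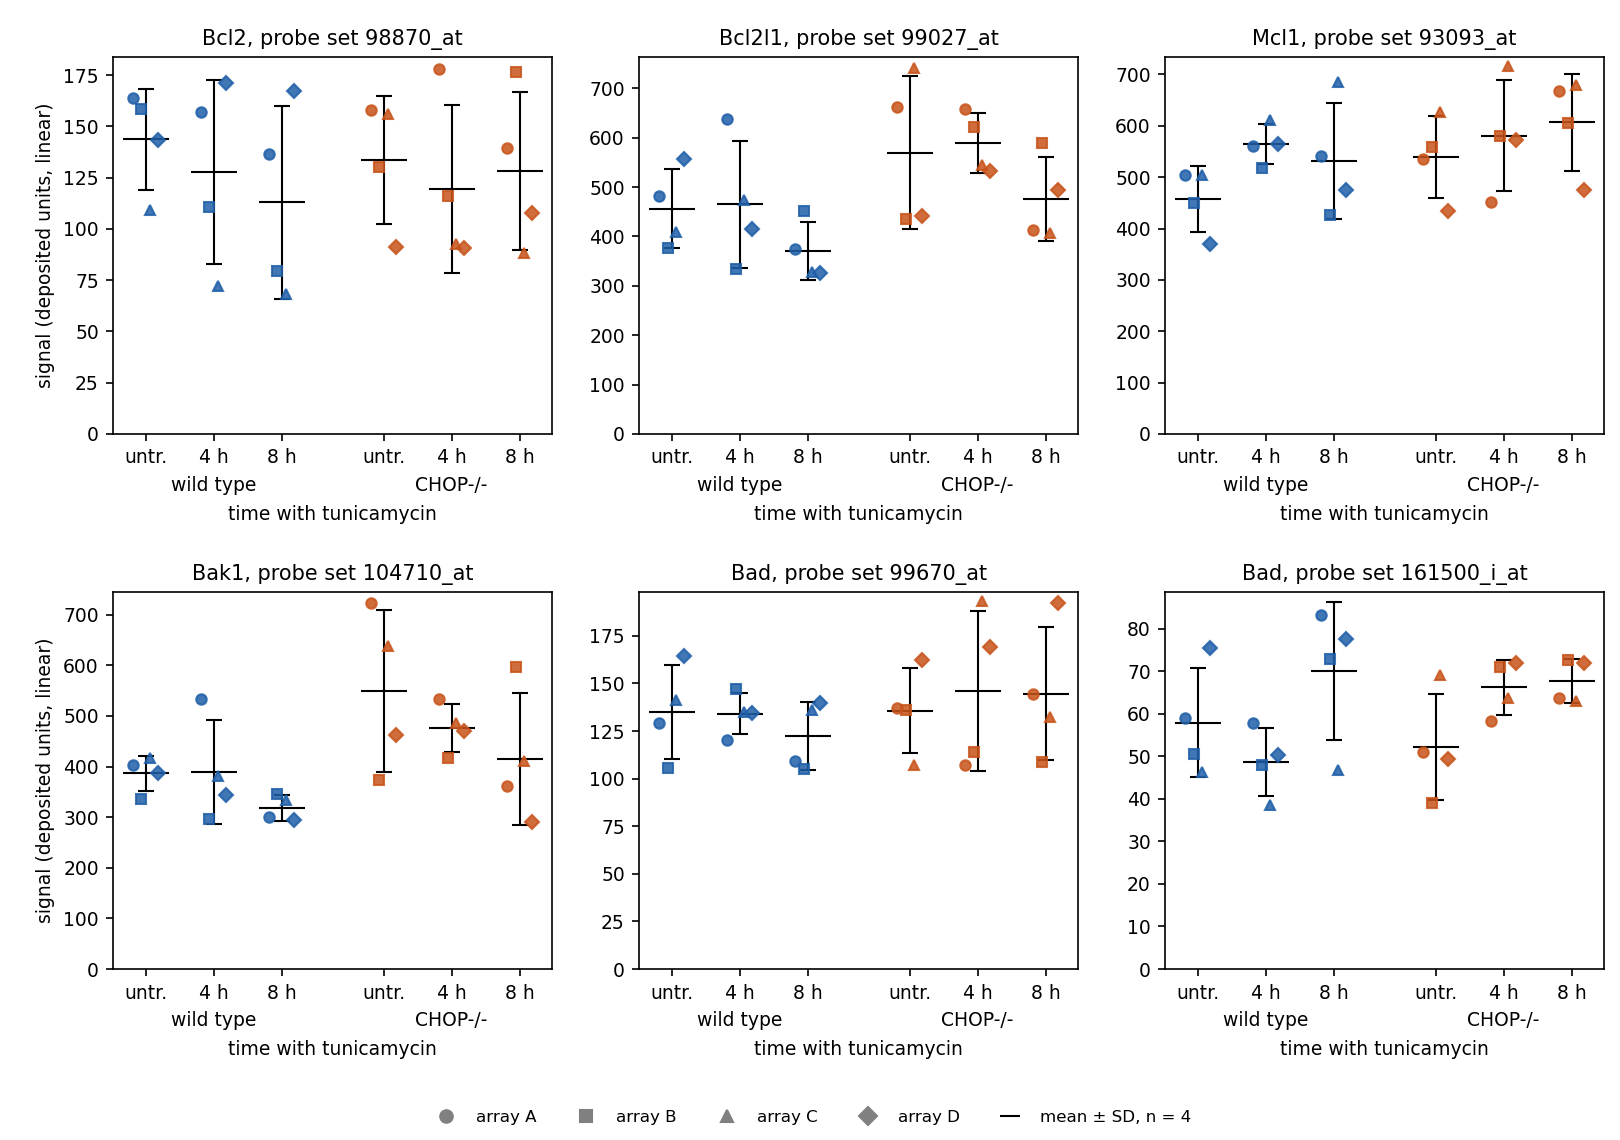
Signals of 6 probe sets of Bcl2, Bcl2l1, Mcl1, Bak1 and Bad (deposited linear units, separate scales) on each array, by genotype and time with tunicamycin; symbols are arrays A to D, bars are means and whiskers are SD (n = 4). Most groups overlap, and Bak1 in untreated CHOP-/- cells ranges from 373.5 to 722.6.

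The medians of the 10 tested probe sets lay close to 0. The median difference was -0.02 at 4 h and -0.05 at 8 h in wild-type cells, beside -0.03 and -0.01 over all tested probe sets. In CHOP-/- cells the medians were 0.10 and 0.03, beside 0.01 and 0.00 over all. At 4 h in CHOP-/- cells 1.37% of all probe sets were called, and between 4 h and 8 h 5.0% were, with no member among them in either. Between the genotypes the medians were -0.01 untreated, 0.08 at 4 h and 0.10 at 8 h, where 3.8% of all probe sets were called.

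**Figure D4:**
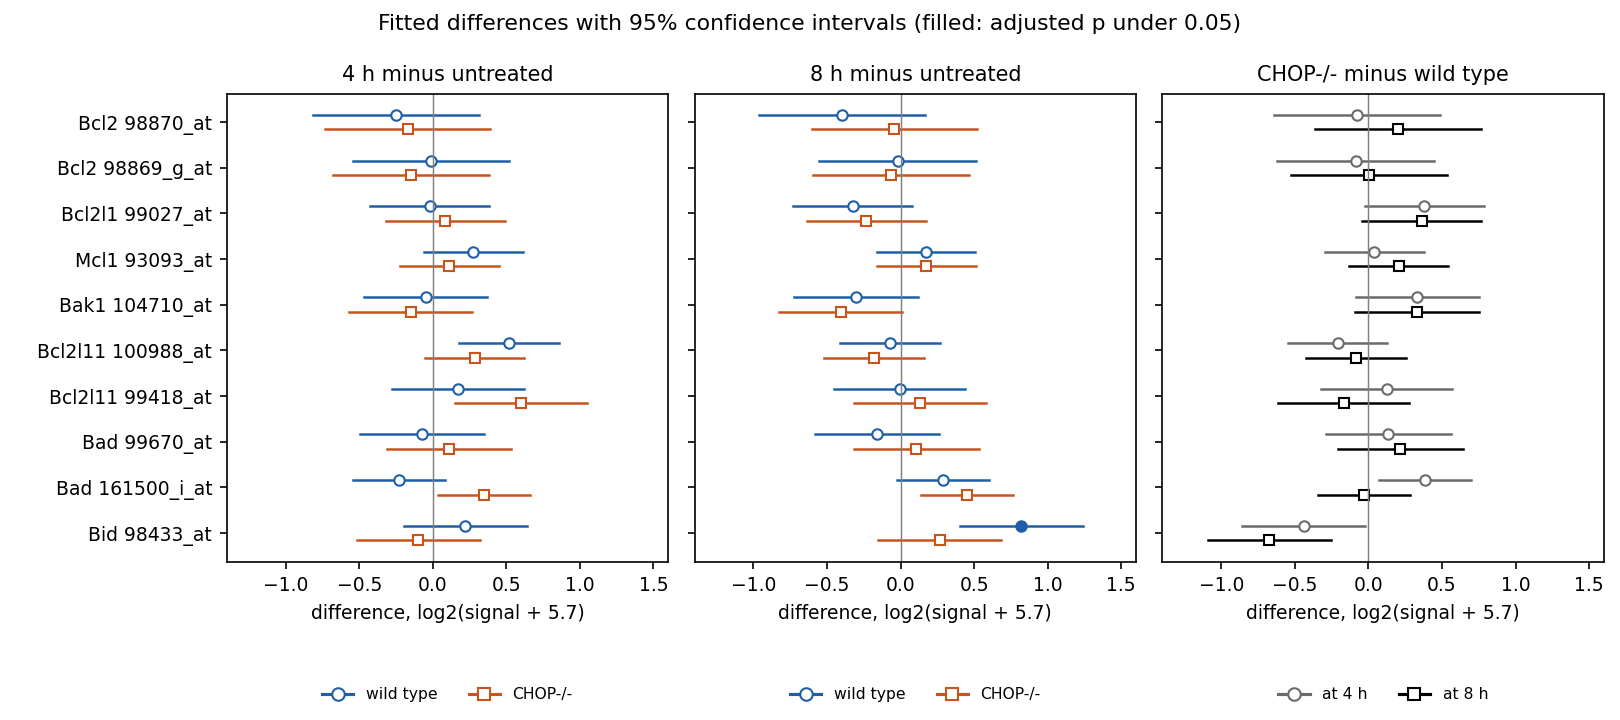
Fitted log2 differences of the 10 tested probe sets with 95% confidence intervals: 4 h minus untreated (left), 8 h minus untreated (middle) and CHOP-/- minus wild type at 4 h and 8 h (right). Filled symbols have an adjusted p under 0.05, and the only one drawn is Bid in wild-type cells at 8 h (0.82).

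Arrays of 2 groups did not overlap for 2 of 10 member probe sets in the wild-type 8 h comparison, Bid and Bak1, on the normalized scale, against 19.6% of all probe sets. The count was also 2 of 10 in the CHOP-/- 8 h comparison, Bid and Bad 161500_i_at, against 17.4%. From 4 h to 8 h it was 2 in wild-type cells (Bcl2l11 100988_at and Bad 161500_i_at, 8.56% of all) and 1 in CHOP-/- cells (Bcl2l11 99418_at, 11.4%), and at 4 h in CHOP-/- cells it was 1 (Bcl2l11 99418_at, 5.7%). Between the genotypes it was 0 untreated (5.03%), 1 at 4 h (Bad 161500_i_at, 7.47%) and 1 at 8 h (Bid, 11%). In the deposited signals, before normalization, Bak1, Bad between times of 1 genotype, Bid in CHOP-/- cells and 99418_at from 4 h to 8 h did overlap.

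Other genes of the pathway were taken from 3 lists. Of 16 further BCL2 family genes, 4 were tested, and at 8 h 2 fell in wild-type cells and 1 in CHOP-/- cells, none rising, where 15.1% and 12.5% of all tested probe sets were called. Bnip3, a hypoxia-induced BH3-like protein of mitophagy, fell by 0.85 in wild-type (adjusted p = 0.00787) and by 0.77 in CHOP-/- cells (adjusted p = 0.0183), from mean signals of 219.4 and 257.2 to 118.7 and 146.4. The CHOP-/- call was lost without the untreated arrays A, B or D or the 8 h arrays A or C (adjusted p up to 0.0623). Without the 6 wild-type arrays A and B its wild-type difference was -0.46 (adjusted p = 0.462). Bok, an effector related to BAX and BAK, fell by 0.84 in wild-type cells (adjusted p = 0.0452), a call lost without the untreated arrays C or D or the 8 h arrays A, B or D (0.0327 to 0.141 with 1 array left out). It was also lost with arrays centred on their medians (-0.76, adjusted p = 0.12), with no filter (0.0694), with no intensity trend (0.0507) and without the wild-type arrays C (0.0606), and was kept without the arrays A and B (-0.91, adjusted p = 0.0315). For Bok in CHOP-/- cells the difference was -0.68 (adjusted p = 0.124).

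Of 20 genes of mitochondrial apoptosis and caspases, 15 were tested. In each genotype 1 rose and 3 fell at 8 h, and they were the same genes by name. These were 4 of 15 genes, which had 19 tested probe sets, beside those 15.1% and 12.5% of all probe sets. Casp6, an executioner caspase, fell by 1.02 in wild-type (adjusted p = 0.000166) and by 1.01 in CHOP-/- cells (adjusted p = 0.00022), with mean signals going from 109.2 to 49.6 and from 100.3 to 44.1. Birc2, the inhibitor of apoptosis cIAP1, rose by 0.99 (adjusted p = 0.00115) and 1.33 (adjusted p = 6.25e-05). Birc5, the mitotic protein survivin, fell by 0.84 (adjusted p = 0.00386) and 0.81 (adjusted p = 0.00609). Apaf1, the scaffold of the apoptosome, fell by 0.58 (adjusted p = 0.00497) and 0.56 (adjusted p = 0.00758).

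In wild-type cells the calls of Birc5 and Apaf1 were lost without the arrays A and B, with differences of -0.89 (adjusted p = 0.0698) and -0.54 (adjusted p = 0.174) from 2 arrays per group, and that of Apaf1 in CHOP-/- cells with arrays centred on their medians (adjusted p = 0.068). From 4 h to 8 h in CHOP-/- cells Birc2 rose by 0.81 (adjusted p = 0.0193) and Casp6 fell by 0.62 (adjusted p = 0.034), calls lost without arrays C or D at 4 h or C at 8 h for Birc2 (adjusted p up to 0.0978) and without C or D at 4 h or A, B or C at 8 h for Casp6 (up to 0.123). The Casp6 step was also lost with no filter (0.0688), with only the compared groups (0.0982) and without the wild-type arrays C (0.0523). The medians of this list at 8 h were -0.01 in wild-type and -0.02 in CHOP-/- cells.

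Of 21 reported regulators of these genes or proteins 15 were tested, with 20 probe sets, and 1 gene rose at 8 h, against the same shares of all probe sets. Foxo3, a forkhead factor reported to act on Bcl2l11, rose by 0.81 in CHOP-/- cells (adjusted p = 0.00275), from a mean signal of 225.4 ± 15.0 to 402.8 ± 70.7. In wild-type cells it rose by 0.56 (adjusted p = 0.0309), from 259.0 ± 73.5 to 384.6 ± 50.5, a call lost without any 1 of the untreated arrays A, B or C or the 8 h arrays A, B or D (adjusted p up to 0.145), and without the arrays A and B together (0.39, adjusted p = 0.496) or the arrays C (0.59, adjusted p = 0.0807), and with only the compared groups (adjusted p = 0.093). No gene of the 3 lists was called by limma at 4 h, between the genotypes or in the difference of responses. Over all tested probe sets 0.0% to 3.8% were called there. Of the 301 list tests in these comparisons 27 had an unadjusted p under 0.05. The shares of all tested probe sets under that p ran from 3.9% (difference of responses at 4 h) to 15.9% (between the genotypes at 8 h).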

How the data were processed

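The authors deposited 1 table of linear probe set intensity values for the 24 arrays (12488 probe sets, 66 of them controls), given to 1 decimal. From the values, each array had been scaled to 1 trimmed mean; the software was not given in the sources used here, and the files hold no detection calls. Control probe sets were dropped. The rest were transformed as log2(signal + 5.7), the pseudocount being the 20th percentile of all signals, quantile normalized, and fitted with limma 3.58.1 (R 4.3.3) as 6 group means over 24 arrays with an intensity trend. Probe sets with a mean above the 40th percentile were tested. The labels state no test. The median SE of a wild-type 8 h difference was 0.194, so the number of arrays limits the precision. The procedure was tested on simulated data.

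The members and gene lists were chosen with earlier results of these data known. Members were always named, Ddit3 as the genotype check, list genes where called (up to 4 per list and comparison), and for each called member the 3 genes with the highest correlation.

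Arrays of the same letter deviated together between wild-type groups (correlations of deviations from the group means 0.23 to 0.616) and between the genotypes at 8 h (0.271 to 0.539). Among CHOP-/- groups they did not do so on all letters (untreated against 4 h: -0.331 to 0.431), although letter D did (0.26 to 0.375). This pairing comes from the data, not the labels, and blocked values stand beside the results they change. Alternatives were other pseudocounts, filters, scalings and fits, and arrays left out. Promoter sequences came from RefSeq.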

Additional observations from a re-analysis of the deposited data

Results flagged for a closer look

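Among the 78 groups of 4 arrays looked at (13 probe sets in 6 groups), 1 array stood far from the other 3 in 2 cases. Chance gives about 1 in 20 groups, so 2 of 78 is not an excess. For Bcl2l11 99418_at in wild-type cells at 4 h, array A read 107.9 against 44.8 to 49.2, a gap of 0.93 of the group's range, above the 95% critical value of Dixon's test. For Bcl2l1 99026_at in CHOP-/- cells at 8 h, array B read 12.0 against 1.3, 1.5 and 2.6, a gap of 0.879 of the range, at a level under the filter signal.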

How the results depend on the processing

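No called difference of a member changed sign under any alternative. With 16 alternatives and 24 that left out 1 array, 100 of the 110 member tests were called under none, although 47 of these changed sign in at least 1. The same counts were not made over all tested probe sets, so the members cannot be set against them here. The count of called member probe sets in the wild-type step from 4 h to 8 h was 1, Bcl2l11 100988_at. It fell to 0 with the values as deposited, arrays centred on their medians, no filter, only the compared groups, the replicate block over all arrays, and without the wild-type 4 h arrays A and C, the wild-type arrays C or the wild-type arrays A and B. It was 2 with no intensity trend (Bad 161500_i_at added), 3 with the replicate block over the wild-type arrays (Bad and Bid added), and 0 to 1 with 1 array left out. The 1 called was Bad and not Bcl2l11 under array weights (adjusted p = 0.0109 and 0.0566) and without array C at 8 h, and Bid without array C at 4 h. At 8 h against untreated in wild-type cells the count was 1, with 2 under array weights (Bid and Bad) and 0 without the arrays A and B. At 4 h it was 0, with 1 (Bcl2l11 100988_at) under the replicate block over the wild-type arrays. In CHOP-/- cells at 8 h it was 0, with 1 (Bad) under a pseudocount of 1, array weights, no intensity trend and without the wild-type arrays C, and 0 to 1 with 1 array left out. From 4 h to 8 h in CHOP-/- cells it was 0, with 1 (Bcl2l11 100988_at) under array weights. Between the genotypes at 8 h it was 0, with 1 (Bid) under only the compared groups, the replicate block (also over the 2 compared groups), array weights, and without the wild-type 4 h arrays A and C or the wild-type arrays A and B. The replicate block changed no call of a member beyond those given here and in the report. The cause of these moves was not tested; leaving arrays out also leaves fewer samples. Leaving out all wild-type arrays C or A and B and the blocks over part of the arrays were chosen after seeing the data.

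Over all probe sets, the wild-type 8 h comparison had 1123 calls, and 341 (without the arrays A and B) to 1916 (replicate block, wild-type arrays) under the alternatives. From 4 h to 8 h the figures were 269, and 22 to 759; at 4 h they were 145, and 24 to 371; between the genotypes at 8 h they were 283, and 132 to 761. In CHOP-/- cells they were 102, and 28 to 135, at 4 h, and 373, and 190 to 473, from 4 h to 8 h. Between the genotypes they were 63, and 24 to 101, untreated and 146, and 47 to 241, at 4 h. Centring on medians moved the share of calls that were higher from 58.3% to 69.0% at 8 h in wild-type cells, from 52.4% to 70.1% from 4 h to 8 h, and in CHOP-/- cells from 52.9% to 66.1% and from 61.4% to 80.2%. Signal over background limits 98868_at and 99026_at, which were too dim for a statement.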
